A study of Rattus norvegicus with 44 samples.

Results

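The data describe 9 transcription factors that set and hold the identity of hepatocytes, the main cells of the liver, in rat hepatoma cells exposed to metals. The genes are Hnf4a, Foxa1, Foxa2, Foxa3, Cebpa, Cebpb, Nr1h4, Nr0b2 and Onecut1. All probe sets whose array annotation names exactly one of these genes were taken, which gave 16 of 31042 probe sets, array controls left aside, and 9 of 14218 genes named in this way. Cebpa had 5 probe sets, Hnf4a had 3, Onecut1 had 2, and each of the other genes had 1. The probe set with the highest mean over all arrays leads each gene.

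H4-II-E-C3 is an established line derived from a rat hepatoma, and it is 1 tumor line, not normal liver. The cells were exposed for 24 h, in medium without serum, to nickel chloride (40, 140 or 400 µM), sodium dichromate (0.275, 1 or 10 µM) or cadmium chloride (0.2, 0.55 or 1.2 µM), and control flasks received no metal. The concentrations were set by viability tests, from one with no observed death to a high one at which many cells died. Each of 4 biological replicates holds the 9 exposures and 2 control arrays, for 36 exposed and 8 control arrays. Values are log2 intensities after Robust Multi-Array Averaging (RMA), so that a difference of 1 is a 2-fold change. The number of arrays limits the precision. The labels call the replicates biological without saying what separates them, so p-values measure the spread between these samples, which may be partly technical.

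The condition of each array was not taken from its own label. Titles were listed in the order of the series, the 4 titles marked as repeated microarrays were moved to the end, and the titles were then given to the columns of the table in that order. Under this order the condition means match those the study tabulates to rounding, which they do not under the labels as given. For 20 of the 36 exposed arrays the order gives another condition than the label. Replicate 1 keeps all 11 conditions, replicate 2 keeps 9 of 11, and replicates 3 and 4 each keep 1 of 11. Every result below therefore rests on this order, and with the labels as given no member gene passed the test at any exposure.

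The identity of a hepatocyte is held by a small network of factors that bind each other's genes. Hnf4a, a nuclear receptor, stands near its center and drives genes of lipoprotein, clotting factor and bile acid metabolism. The Foxa proteins are pioneer factors that open chromatin at liver genes, and Onecut1 (also called Hnf6) acts with them in liver and bile duct development. Cebpa drives genes of the quiescent, metabolic liver, while Cebpb is induced in the acute phase response and in regeneration. Nr1h4 encodes Fxr, the bile acid receptor, and its target Nr0b2 encodes Shp, a repressor that lacks a DNA binding domain and acts on Hnf4a and other nuclear receptors.

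Hnf4a and Nr0b2 were the members whose leading probe sets fell at the high concentration of all 3 metals, so the sequences upstream of their starts are shown. With cadmium the other Hnf4a probe sets did not pass the test. RefSeq (build GRCr8) gave start sites for 6 of the 9 genes, of which Hnf4a has 2, 35616 bases apart on chromosome 3. Each run is the 250 bases before a start, from 5′ to 3′ on the strand of the gene. Capitals mark matches, on either strand, to 7 motifs of liver and stress factors.
Hnf4a, first start, chr3:172605970-172606219, + strand: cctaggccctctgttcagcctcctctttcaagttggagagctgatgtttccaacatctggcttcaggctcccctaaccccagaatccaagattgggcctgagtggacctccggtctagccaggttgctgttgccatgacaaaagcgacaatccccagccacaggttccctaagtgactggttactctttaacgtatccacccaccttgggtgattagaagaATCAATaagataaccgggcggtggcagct
Hnf4a, second start, chr3:172641586-172641835, + strand: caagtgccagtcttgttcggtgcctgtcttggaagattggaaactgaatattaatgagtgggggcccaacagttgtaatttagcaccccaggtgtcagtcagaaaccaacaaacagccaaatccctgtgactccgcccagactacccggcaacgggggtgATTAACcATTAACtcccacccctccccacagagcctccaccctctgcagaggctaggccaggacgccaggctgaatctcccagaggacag
Nr0b2, chr5:151062910-151063159, + strand: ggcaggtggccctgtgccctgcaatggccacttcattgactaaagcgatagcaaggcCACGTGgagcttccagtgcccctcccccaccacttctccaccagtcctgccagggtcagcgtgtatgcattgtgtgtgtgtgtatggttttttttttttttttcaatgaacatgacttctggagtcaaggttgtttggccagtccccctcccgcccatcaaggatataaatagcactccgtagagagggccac

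The first Hnf4a start has 1 match to ATTGAT, the core of the site that Onecut1 binds, 29 bases upstream and on the other strand. Such a match is held by 7.1% of 33469 windows of this length. The second start has 2 matches to GTTAAT, a partial site of the liver factor Hnf1, at 90 and 83 bases upstream, also on the other strand, and 6.45% of windows hold at least one. The Nr0b2 window has CACGTG, which reads as the hypoxia response core ACGTG on both strands, so that these 2 matches overlap, and ACGTG is held by 16.57% of windows. The forkhead motif TGTTTAC, the Hnf4 site CAAAGTCCA, the C/EBP palindrome TTGCGCAA and the Lrh-1 site CAAGGTCA are not in these 3 windows. They were held by 3.21%, 0.34%, 0.14% and 1.33% of windows. The probe sets were not assigned to one Hnf4a start or the other.

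The arrays held part of a hepatocyte pattern. Of 11 measured hepatocyte markers 10 lay at or above the median level of all probe sets, against 3 of 10 markers of fetal, progenitor and bile duct cells and 1 of 14 markers of Kupffer, endothelial and stellate cells. Alb (albumin) stood at percentile 100 of all levels, and Ptprc, which encodes the leukocyte antigen CD45, at percentile 16.5. The 3 progenitor markers at or above the median were Cd24 (percentile 97.5), Afp (89.8) and H19 (51.5). Liver genes of the lists below ranged from low levels, as Slc10a1 (6.45) and Otc (15.4), to high ones, as Tat (97.6). Mt2A, a metallothionein induced by metals, was higher than in the controls in every replicate of the 3 high concentrations, by 3.25 to 4.36 on the log2 scale with nickel, 1.10 to 1.65 with chromium and 4.81 to 5.58 with cadmium.

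Differences between arrays that the exposures do not define touch several of the results. The 4 repeated arrays are cadmium 0.55 µM in replicate 2, and nickel 140 µM, nickel 400 µM and chromium 0.275 µM in replicate 4. Among the 15521 probe sets at or above the median level, 368 were lower on all 4 repeated arrays than on the other 40, and 372 were higher. Cebpb and the leading Cebpa probe set were below every other array of their condition on all 4, by 0.58 to 1.13 and by 0.40 to 0.93 from the mean of the others. Nr1h4 was above them on all 4, by 0.28 to 0.67. The exposure to 400 µM nickel also differed in size between replicates. In the same 15521 probe sets, 1039, 568, 173 and 254 changed at least 2-fold in replicates 1 to 4, against 182 to 489 with 10 µM chromium and 148 to 232 with 1.2 µM cadmium. How far these differences enter the results for nickel was not tested beyond the values without each replicate and without the repeated arrays given below.

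The plot of every array shows the 9 genes side by side.

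**Figure D1:**
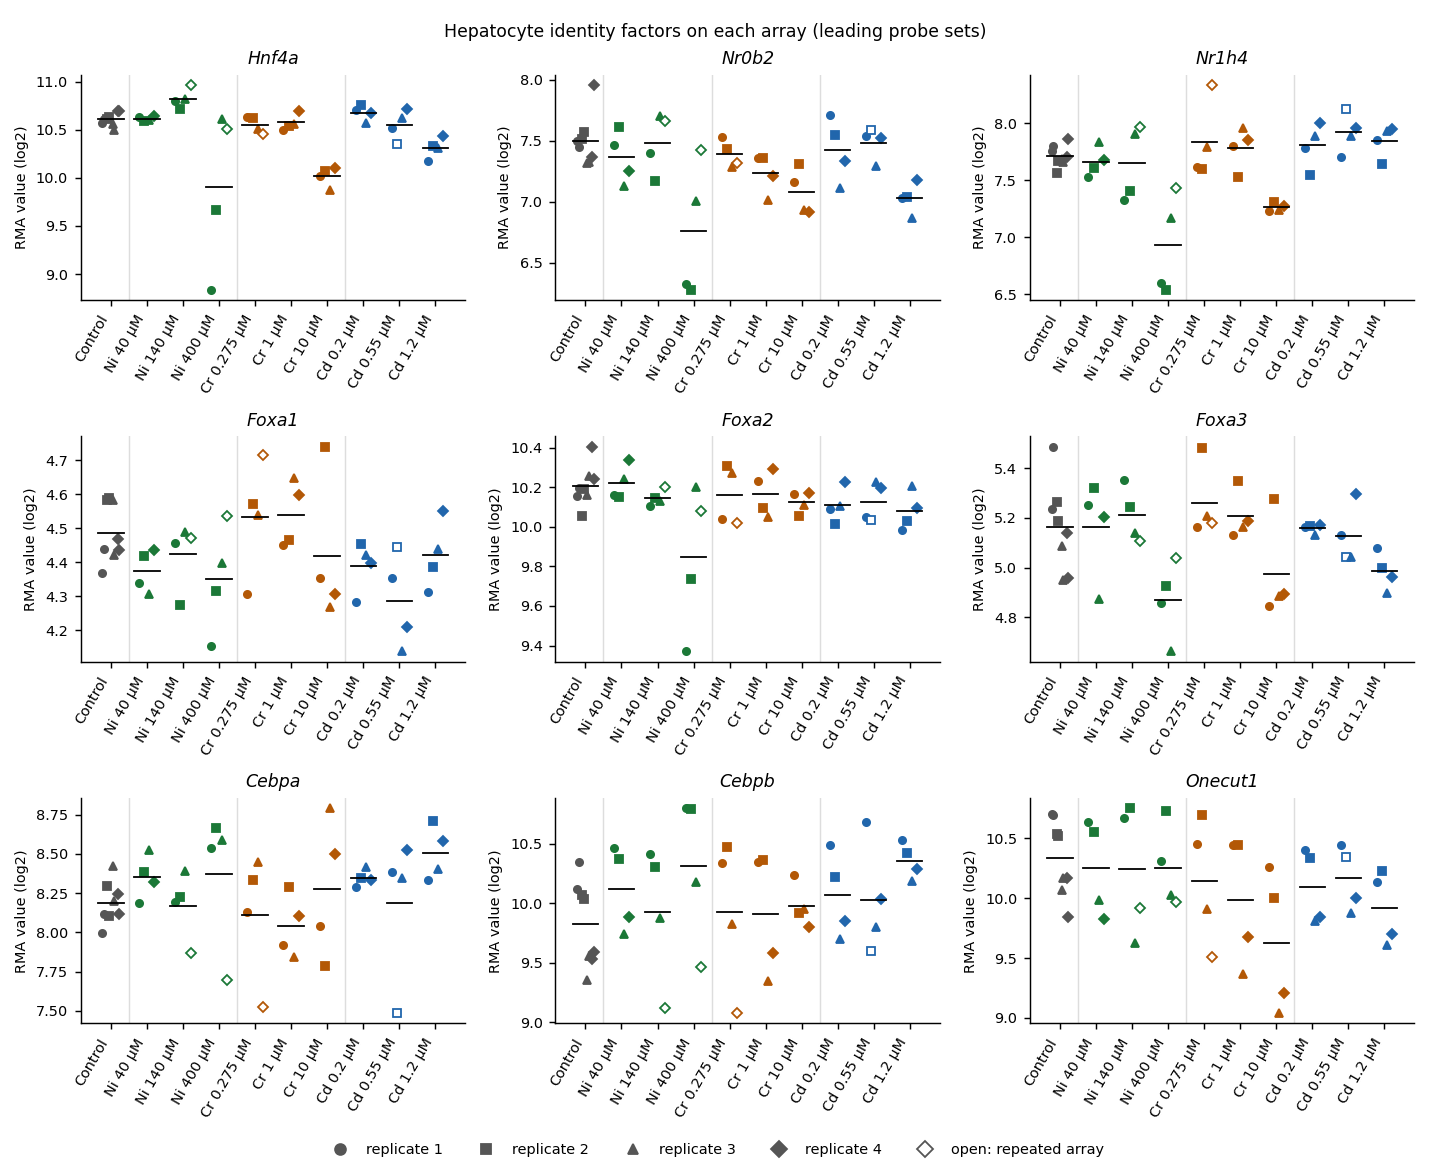
RMA value (log2) of the leading probe set of each gene (y axis) on all 44 arrays, by condition (x axis); symbols stand for replicates, open symbols for the 4 repeated arrays, and black lines for condition means. Hnf4a and Nr1h4 lie below all control arrays on all 4 arrays with 10 µM chromium, while the 4 arrays with 400 µM nickel spread from 8.84 to 10.61 for Hnf4a.

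The leading probe sets of the 9 genes differed widely in the rank of their signal among all probe sets. Signal also differs between probe sets of 1 gene, so a rank does not measure the amount of RNA. The other Hnf4a probe sets stood at percentiles 82.38 and 71.45, and the second Onecut1 probe set at 82.89. Over all arrays Hnf4a (percentile 96.6), Foxa2 (95.3), Onecut1 (95.3) and Cebpb (94.9) were near the top. Cebpa (79.7), Nr1h4 (71.7) and Nr0b2 (67.4) were in the middle range. Foxa3 (31.3) and Foxa1 (11.7) lay below the median probe set, so changes of these are small differences near the low end of the scale.

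At the high concentration, 6 of the 9 genes passed the test with nickel, 4 with chromium and 4 with cadmium (limma, Benjamini-Hochberg adjusted p under 0.05 over all probe sets). With 400 µM nickel Hnf4a, Nr0b2, Nr1h4, Foxa2 and Foxa3 fell and Cebpb rose. With 10 µM chromium Hnf4a, Nr0b2, Nr1h4 and Onecut1 fell, and none rose. With 1.2 µM cadmium Hnf4a, Nr0b2 and Onecut1 fell and Cebpb rose. Of all probe sets, 21.7% passed this test with nickel, 22.0% with chromium and 21.9% with cadmium. Among probe sets at or above the median level, where 7 of the 9 leading probe sets lie, the shares were 35.8%, 38.3% and 34.3%. In the falling direction alone they were 14.7%, 17.5% and 12.4%, and in the rising direction 21.1%, 20.8% and 21.9%. The median change of the 9 genes was -0.29 with nickel, -0.19 with chromium and -0.13 with cadmium, beside medians of -0.02, -0.00 and -0.04 over all probe sets. Since all arrays were set to 1 distribution, values are relative to the other RNAs of an array, and fewer cells that express a gene cannot be told apart from less of its RNA per cell. No member reached the 1.8-fold and FDR 0.001 criteria of the methods, which 1.19%, 1.48% and 0.973% of probe sets reached at these concentrations.

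**Figure D2:**
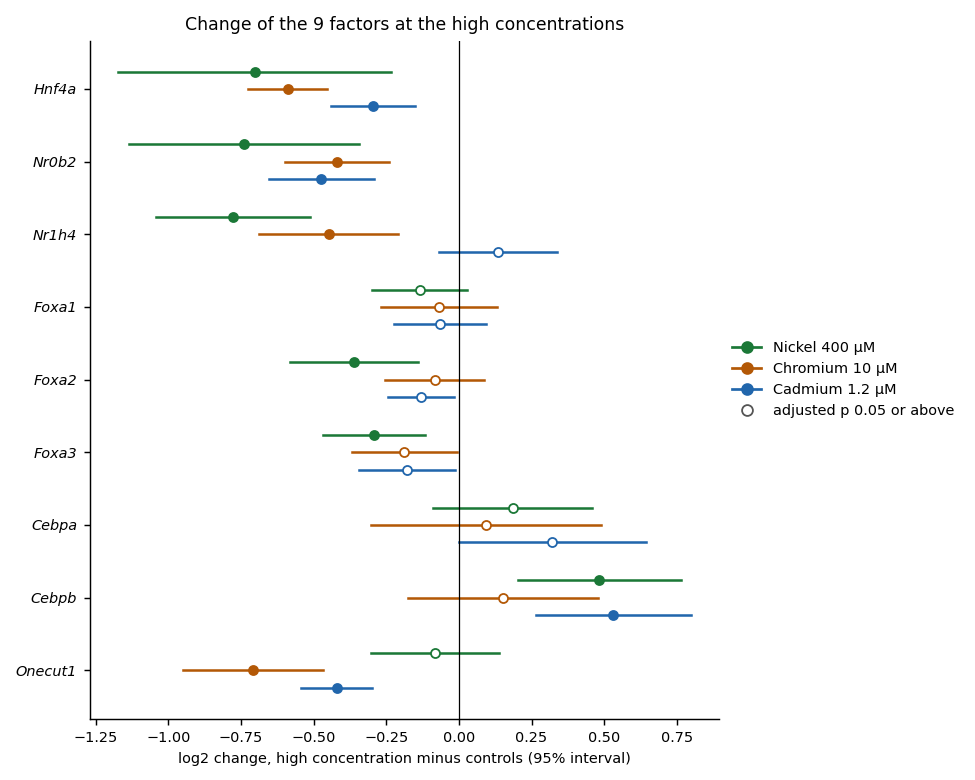
Log2 change of each gene at the high concentration minus the controls (x axis) with its 95% interval; filled points have an adjusted p under 0.05. Hnf4a and Nr0b2 are filled and left of 0 for all 3 metals, and Cebpb is filled and right of 0 for nickel and cadmium.

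Hnf4a had log2 levels of 8.84, 9.67, 10.61 and 10.50 in replicates 1 to 4 with 400 µM nickel, against 10.49 to 10.70 (median 10.61) on the 8 control arrays. The first 2 replicates lay far below all controls and the other two within their range. The change was -0.70 ± 0.22 (SE, adjusted p = 0.032), and it was -1.75, -0.95, 0.08 and -0.19 within the replicates. Without replicate 1 it was -0.35 (adjusted p = 0.13) and without replicate 2 it was -0.62 (adjusted p = 0.20). These are also the 2 replicates in which most probe sets changed. The fit takes 1 spread over the controls and all nickel exposures. The SD between arrays was 0.03 at 40 µM, 0.10 at 140 µM and 0.83 at 400 µM. The SE of 0.22 and its p-value thus do not measure the spread at 400 µM alone.

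With 10 µM chromium Hnf4a had levels of 10.02, 10.07, 9.88 and 10.10, all below every control array. Of all probe sets at or above the median level, 12.2% had all 4 chromium arrays below all controls. The change was -0.59 ± 0.06 (adjusted p = 4.6e-06), the smallest adjusted p of any member, and it lay between -0.65 and -0.55 in the 4 replicates. It passed the test without each replicate in turn. With 1.2 µM cadmium the levels were 10.18, 10.33, 10.31 and 10.43, again below every control array, which 7.19% of those probe sets shared. The change was -0.30 ± 0.07 (adjusted p = 0.0047), and without replicate 1 it was -0.26 (adjusted p = 0.056).

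The other 2 probe sets of Hnf4a followed the leading one with nickel and chromium. They changed by -0.65 (adjusted p = 0.035) and -0.67 (adjusted p = 0.021) with nickel, and by -0.74 (adjusted p = 0.00055) and -0.76 (adjusted p = 0.0033) with chromium. With cadmium they changed by -0.14 (95% interval -0.47 to 0.18, adjusted p = 0.54) and -0.13 (95% interval -0.47 to 0.22, adjusted p = 0.61), and with the mean of the 3 probe sets the cadmium change was -0.19 (adjusted p = 0.29). The cadmium call of Hnf4a is that of 1 of its 3 probe sets.

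Nr0b2 had log2 levels of 6.32, 6.28, 7.01 and 7.42 with 400 µM nickel, against 7.32 to 7.96 (median 7.47) on the control arrays. Of the 4 nickel arrays 3 lay below all controls, and the change was -0.74 ± 0.19 (adjusted p = 0.0091). The adjusted p was 0.068 without replicate 1 and 0.079 without replicate 2. With 10 µM chromium the levels were 7.16, 7.31, 6.93 and 6.91 and the change -0.42 ± 0.09 (adjusted p = 0.0014). With 1.2 µM cadmium the levels were 7.03, 7.04, 6.86 and 7.17 and the change -0.47 ± 0.09 (adjusted p = 0.00062). All 8 of these chromium and cadmium arrays were below every control array, and the cadmium changes within replicates spanned only -0.50 to -0.45. Of probe sets at or above the median level, 12.2% had all 4 chromium arrays and 7.19% had all 4 cadmium arrays below all controls. One control array of replicate 4 was high at 7.96.

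Nr1h4 fell with nickel and chromium and did not pass with cadmium. It had log2 levels of 6.60, 6.54, 7.17 and 7.44 with 400 µM nickel and 7.23, 7.31, 7.24 and 7.28 with 10 µM chromium, all below the controls at 7.56 to 7.86 (median 7.69), as were 6.18% of probe sets at or above the median level with nickel and 12.2% with chromium. The changes were -0.78 ± 0.13 (adjusted p = 0.00034) and -0.45 ± 0.11 (adjusted p = 0.0075). The nickel change passed the test without each replicate in turn, while the chromium change had an adjusted p of 0.060 without replicate 1. With 1.2 µM cadmium the levels were 7.85, 7.65, 7.93 and 7.95, which overlap the controls, and the change was 0.13 (95% interval -0.07 to 0.34, adjusted p = 0.35). The repeated nickel array of replicate 4 was the highest of the nickel values, on a probe set where all repeated arrays were high.

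Onecut1 fell with chromium and cadmium and did not pass with nickel. With 10 µM chromium its levels were 10.26, 10.00, 9.04 and 9.21 in replicates 1 to 4, and with 1.2 µM cadmium 10.13, 10.22, 9.61 and 9.70. The controls were at 10.52 to 10.70 in replicates 1 and 2 and at 9.84 to 10.17 in replicates 3 and 4, so the groups overlap over all arrays but not within a replicate. The changes were -0.71 ± 0.11 with chromium (adjusted p = 0.00019) and -0.42 ± 0.06 with cadmium (adjusted p = 5.5e-05), and both passed the test without each replicate in turn. Neither passed it without the replicate block, at adjusted p = 0.14 and adjusted p = 0.15. With 400 µM nickel the levels were 10.31, 10.73, 10.02 and 9.96 and the change -0.08 (95% interval -0.30 to 0.14, adjusted p = 0.63). The second Onecut1 probe set changed by -0.95 with chromium (adjusted p = 0.0015), -0.49 with cadmium (adjusted p = 0.028) and -0.16 with nickel (adjusted p = 0.44).

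**Figure D3:**
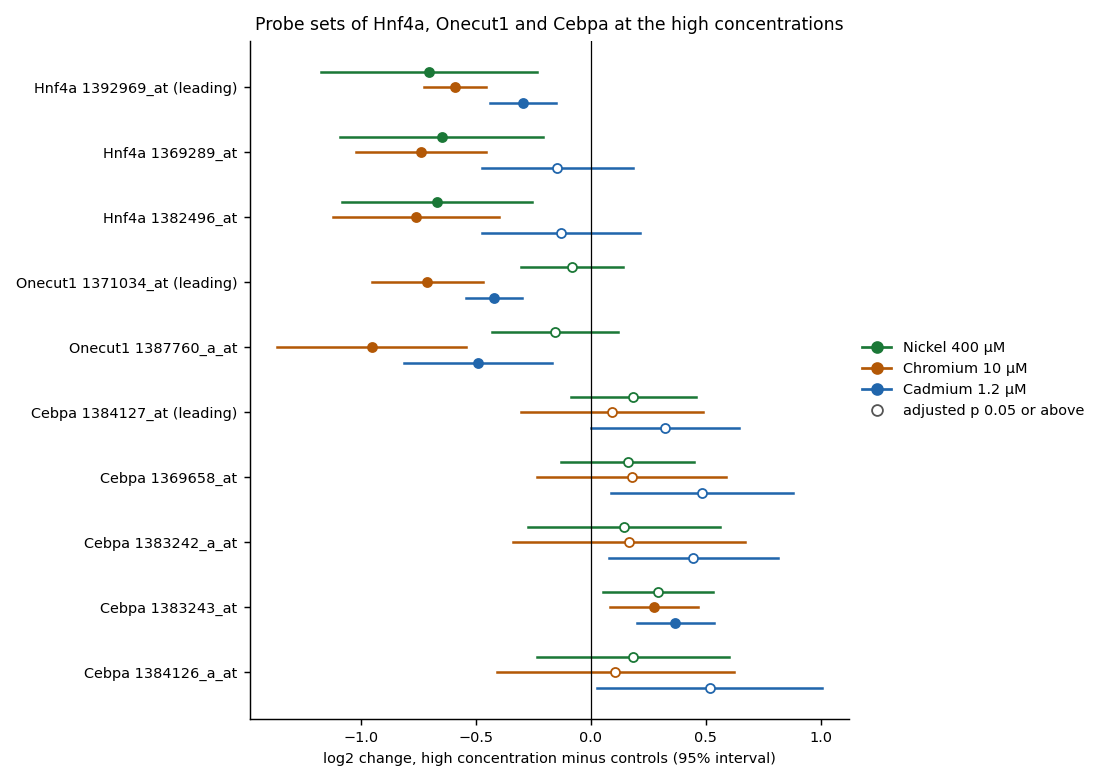
Log2 change at the high concentration minus the controls (x axis) with its 95% interval for the 10 probe sets of Hnf4a, Onecut1 and Cebpa; filled points have an adjusted p under 0.05. All 3 Hnf4a probe sets are filled for nickel and chromium, and only the leading one for cadmium.

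Cebpb was the one member whose leading probe set had a called increase. With 400 µM nickel its levels were 10.79, 10.79, 10.18 and 9.46 in replicates 1 to 4, and with 1.2 µM cadmium 10.53, 10.42, 10.19 and 10.29. The controls were at 10.03 to 10.35 in replicates 1 and 2 and at 9.36 to 9.59 in replicates 3 and 4, so nickel was above the controls of its replicate in 3 of 4 replicates and cadmium in all 4. The changes were 0.48 ± 0.13 (adjusted p = 0.015) and 0.53 ± 0.13 (adjusted p = 0.0055). The array of nickel replicate 4 was a repeated one. Without the 4 repeated arrays the nickel change was 0.68 (adjusted p = 4.8e-06), and with them it lost the call without replicate 1, 2 or 3 (adjusted p = 0.076 to 0.16). With cadmium it lost the call without replicate 3 (adjusted p = 0.080) or 4 (adjusted p = 0.064). With 10 µM chromium Cebpb had levels of 10.23, 9.92, 9.95 and 9.80 and a change of 0.15 (95% interval -0.18 to 0.48, adjusted p = 0.60).

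Cebpa passed no test with its leading probe set. Its levels with 400 µM nickel were 8.54, 8.66, 8.59 and 7.70, against 7.99 to 8.42 (median 8.16) on the control arrays, and the fourth value is a repeated array. The nickel change was 0.18 (adjusted p = 0.35) with this array, and 0.40 (adjusted p = 0.00078) without the 4 repeated arrays, where 24.7% of all probe sets passed with nickel, 27.8% with chromium and 30.6% with cadmium. With 1.2 µM cadmium the levels were 8.34, 8.71, 8.41 and 8.58, with a change of 0.32 (adjusted p = 0.15), or 0.32 (adjusted p = 0.00082) without the repeated arrays. With 10 µM chromium the change was 0.09 (adjusted p = 0.82). One of the 5 Cebpa probe sets rose with cadmium by 0.37 (adjusted p = 0.0026) and with chromium by 0.27 (adjusted p = 0.038). It followed the leading probe set less closely (r = 0.67 over 40 values, with the replicate means removed) than the others did (r = 0.91 to 0.96). Those others changed by 0.45 to 0.52 with cadmium and did not pass (adjusted p = 0.076 to 0.12), and with nickel none of the 5 passed. Without the 4 repeated arrays all 5 probe sets passed with nickel (0.39 to 0.53) and with cadmium (0.32 to 0.52).

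Foxa2 had levels of 9.37, 9.74, 10.20 and 10.08 with 400 µM nickel, against 10.05 to 10.40 (median 10.20) on the control arrays. The first 2 replicates were below all controls and the others within their range. The change was -0.36 ± 0.10 (adjusted p = 0.019), or -0.21 (adjusted p = 0.13) without replicate 1 and -0.35 (adjusted p = 0.12) without replicate 2. The SD of Foxa2 was 0.09 at 40 µM, 0.04 at 140 µM and 0.37 at 400 µM nickel. Its SE rests on the spread shared by these exposures. With 400 µM nickel Foxa3 had levels of 4.86, 4.93, 4.66 and 5.04, against 4.95 to 5.49 on the control arrays. Its change was -0.29 ± 0.08 (adjusted p = 0.017), which lost the call without replicate 1, 2 or 3 (adjusted p = 0.078 to 0.15). With chromium and cadmium Foxa2 changed by -0.08 (adjusted p = 0.57) and -0.13 (adjusted p = 0.095), and Foxa3 by -0.19 (adjusted p = 0.14) and -0.18 (adjusted p = 0.12). Foxa1 changed by -0.14, -0.07 and -0.06 with nickel, chromium and cadmium, with adjusted p of 0.24, 0.72 and 0.58.

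**Figure D4:**
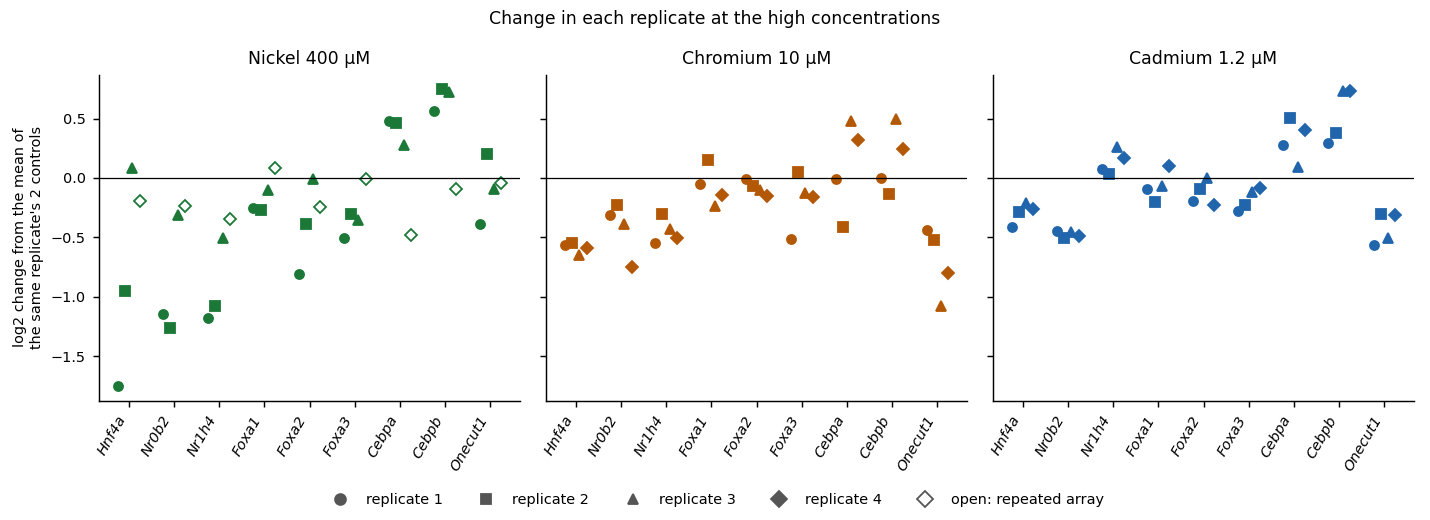
Log2 change of each gene from the mean of the 2 controls of the same replicate (y axis) at the 3 high concentrations; symbols stand for replicates and open symbols for a repeated array. With nickel Hnf4a runs from -1.75 in replicate 1 to 0.08 in replicate 3, while with chromium its 4 values lie between -0.65 and -0.55.

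At the low and middle concentrations none of the 9 genes passed the test with any metal. At these concentrations 0% (nickel low), 1.17% (nickel middle), 0% (chromium low), 0.00322% (chromium middle), 0.229% (cadmium low) and 5.25% (cadmium middle) of all probe sets passed it. At an unadjusted p under 0.05 the counts of members were 1 and 0 with nickel, 0 and 2 with chromium and 1 and 3 with cadmium, low before middle, beside 3.5% and 13.0%, 7.68% and 6.13%, and 7.59% and 23.7% of all probe sets. Without the repeated arrays 4 values passed. Onecut1 fell by 0.24 with 0.2 µM cadmium (adjusted p = 0.013), Cebpa rose by 0.25 (adjusted p = 0.044) and Cebpb by 0.40 (adjusted p = 0.0030) with 0.55 µM cadmium, and Cebpb rose by 0.29 with 140 µM nickel (adjusted p = 0.035). In these 3 exposures 1.34%, 5.94% and 0.957% of all probe sets then passed.

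Hnf4a at 140 µM nickel lay above every control array, with levels of 10.80, 10.72, 10.81 and 10.97, but its change of 0.22 did not pass the test (95% interval -0.25 to 0.69, adjusted p = 0.74), and the other 2 probe sets changed by -0.03 and -0.07. Such a position above all controls was held by 1.67% of all probe sets. The interval rests on the spread shared by all nickel exposures, and the SD was 0.10 at 140 µM and 0.83 at 400 µM. Within the replicates the change of the leading probe set at 140 µM was 0.10 to 0.29.

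Between the middle and the high concentration the level fell in 4 members with nickel, 3 with chromium and 3 with cadmium, and rose in none, beside 10.1%, 19.1% and 12.3% of all probe sets changed in either direction. With nickel the high minus middle change was -0.92 for Hnf4a (adjusted p = 0.016), -0.72 for Nr0b2 (adjusted p = 0.023), -0.72 for Nr1h4 (adjusted p = 0.0028) and -0.34 for Foxa3 (adjusted p = 0.017). With chromium it was -0.56 for Hnf4a (adjusted p = 1.4e-05), -0.52 for Nr1h4 (adjusted p = 0.0032) and -0.36 for Onecut1 (adjusted p = 0.036). With cadmium it was -0.24 for Hnf4a (adjusted p = 0.029), -0.46 for Nr0b2 (adjusted p = 0.0020) and -0.25 for Onecut1 (adjusted p = 0.0081). These values are those of the leading probe sets. The other 2 Hnf4a probe sets changed by -0.62 (adjusted p = 0.072) and -0.60 (adjusted p = 0.061) with nickel. With chromium they changed by -0.59 (adjusted p = 0.0041) and -0.51 (adjusted p = 0.045), and with cadmium by -0.0002 (adjusted p = 0.9997) and 0.11 (adjusted p = 0.74). The second Onecut1 probe set changed by -0.48 with chromium (adjusted p = 0.10) and -0.17 with cadmium (adjusted p = 0.54). Without single replicates 1 to 4 members fell with nickel, 2 with chromium and 1 to 3 with cadmium. The nickel count was 1 without replicate 1 and 1 without replicate 2, and the cadmium count was 1 without replicate 1, 3 or 4. Cebpa (0.33, adjusted p = 0.017) and Cebpb (0.39, adjusted p = 0.0045) rose with nickel without replicate 4.

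The high concentrations were compared directly in 1 fit over all 10 conditions, with 27 differences for the 9 genes and 3 pairs of metals, of which 6 passed the test. Of all probe sets 24.8% differed between nickel and chromium, 25.0% between nickel and cadmium and 25.1% between chromium and cadmium. Among probe sets at or above the median level the shares were 40.7%, 41.0% and 39.6%. The count of the members is near the former shares and below the latter. Nr1h4 was lower with nickel than with cadmium by 0.91 (log2 difference -0.91, 95% interval -1.16 to -0.66, adjusted p = 4.9e-07). It was also lower with chromium than with cadmium (-0.58, adjusted p = 0.00045) and lower with nickel than with chromium (-0.33, adjusted p = 0.048). Onecut1 was higher with nickel than with chromium (0.63, adjusted p = 4.3e-05) and with cadmium (0.34, adjusted p = 0.024), and Foxa2 was lower with nickel than with chromium (-0.28, adjusted p = 0.022). The concentrations differ between metals, so these are differences between exposures as given. The Nr1h4 differences from cadmium passed the test without each replicate in turn, while the Foxa2 difference was -0.11 (adjusted p = 0.48) without replicate 1 and the difference of Nr1h4 between nickel and chromium did not pass without replicate 1, 2 or 3. The Onecut1 difference between nickel and cadmium did not pass without replicate 2 (adjusted p = 0.14) or 3 (adjusted p = 0.069), and neither Onecut1 difference passed without the replicate block.

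No difference of Nr0b2 or of the leading Hnf4a probe set between metals passed this test, with intervals of the difference for Hnf4a of -0.46 to 0.23 (nickel minus chromium), -0.76 to -0.06 (nickel minus cadmium, adjusted p = 0.082) and -0.64 to 0.05 (chromium minus cadmium). The other 2 Hnf4a probe sets were lower with chromium than with cadmium, by differences of -0.59 (adjusted p = 0.035) and -0.63 (adjusted p = 0.033). Without the 4 repeated arrays 14 of the 27 differences passed, among them Hnf4a for nickel minus cadmium (-0.58, adjusted p = 0.0077) and Nr0b2 for nickel minus chromium (-0.54, adjusted p = 0.0043) and nickel minus cadmium (-0.49, adjusted p = 0.010). Cebpb then differed for nickel minus chromium (0.54, adjusted p = 6.6e-05) and chromium minus cadmium (-0.38, adjusted p = 0.0016). No share of all probe sets is given for these differences without the repeated arrays. The larger count is therefore not read as a result about the members.

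Across the 40 values of replicate and condition, with the mean of each replicate removed and the 2 controls averaged, Hnf4a moved with Nr0b2 (r = 0.82) and Foxa2 (r = 0.75), and Cebpa with Cebpb (r = 0.87). The lowest correlation of any pair was that of Cebpa and Foxa1 (r = -0.59). These are descriptions over values that share arrays, and the repeated arrays, on which Cebpa and Cebpb were low together, enter them. Outside the members, the closest patterns to Hnf4a were those of Pink1 (r = 0.96), a mitochondrial kinase, Ass1 (r = 0.95), an enzyme of the urea cycle, and Serping1 (r = 0.94), the inhibitor of complement C1. Serping1 was also among the 3 closest to Nr0b2 (r = 0.86), after Acadm (r = 0.87), a dehydrogenase of fatty acid oxidation, and Anks4b (r = 0.86). The closest to Nr1h4 were Trappc1 (r = 0.96), Apeh (r = 0.94) and Prkra (r = 0.92), to Onecut1 Magi1 (r = 0.88), Tcf4 (r = 0.87) and Tnrc6b (r = 0.86), and to Cebpb Csnk2a2 (r = 0.89), Itgav (r = 0.88) and Taok1 (r = 0.88). For Foxa2 they were Ackr4 (r = 0.87), Mtarc2 (r = 0.85) and Grb14 (r = 0.85), and for Foxa3 Acaca (r = 0.74), Aldh5a1 (r = 0.72) and Acsl1 (r = 0.71).

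Of 22 measured targets of Hnf4a, 11 fell and 0 rose with nickel (median -0.41), 13 fell and 0 rose with chromium (median -0.46), and 10 fell and 2 rose with cadmium (median -0.19). Of all probe sets at or above the median level, 14.7%, 17.5% and 12.4% fell. Ttr, the thyroid hormone carrier transthyretin, changed by -1.62, -1.16 and -0.56 with nickel, chromium and cadmium. Serpina1, the protease inhibitor alpha-1-antitrypsin, changed by -0.99, -1.60 and -1.10. Mttp and Apob, which assemble lipoproteins, changed by -1.36, -0.78 and -0.55 and by -0.66, -1.43 and -0.62, and all 12 of these values passed the test. The nickel count of 11 was 6 without replicate 1 and 5 without replicate 2.

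Of 12 measured targets of the Foxa proteins 7 fell and 1 rose with nickel (median -0.31), 8 fell and 0 rose with chromium (median -0.54), and 7 fell and 1 rose with cadmium (median -0.27). The shares of probe sets at or above the median level were 14.7%, 17.5% and 12.4% falling and 21.1%, 20.8% and 21.9% rising. Of these 12 genes 5 are also on the list of Hnf4a targets or that of hepatocyte markers. Other pairs of the gene lists share genes too, so their counts are not independent. Slc2a2, the glucose transporter Glut2, changed by -1.94 with nickel (adjusted p = 1.6e-08), -2.19 with chromium (adjusted p = 4.8e-09) and 1.32 with cadmium (adjusted p = 4.8e-06). Afp, the fetal serum protein alpha-fetoprotein, changed by -1.75 with nickel (adjusted p = 0.00059), -0.27 with chromium (adjusted p = 0.10) and -0.38 with cadmium (adjusted p = 0.045). The count with nickel was 4 without replicate 1 or 2.

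Of 16 measured genes around Fxr and Shp, 6 fell and 1 rose with nickel, 7 fell and 2 rose with chromium, and 6 fell and 3 rose with cadmium, at medians of -0.22, -0.19 and -0.15, beside 14.7%, 17.5% and 12.4% of probe sets at or above the median level that fell and 21.1%, 20.8% and 21.9% that rose. The nickel count of 6 was 3 without replicate 2. Baat, which joins bile acids to amino acids, changed by -1.49, -1.19 and -1.18 with nickel, chromium and cadmium, and Fetub, a secreted protease inhibitor, by -0.85, -0.85 and -1.11, all past the test. Cyp27a1, which starts the acidic pathway of bile acid synthesis, changed by -1.04 with nickel and -0.46 with chromium, both past the test, and by -0.08 with cadmium (adjusted p = 0.41). Abcc2, a canalicular export pump, rose by 0.99 with both chromium and cadmium and changed by -0.28 with nickel (adjusted p = 0.055). Abcb11, the bile salt export pump and a classic Fxr target, lay at percentile 7.82 of all levels, with changes of -0.03, 0.02 and -0.03.

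Of 17 measured C/EBP targets 8 fell and 1 rose with each metal, at medians of -0.31, -0.30 and -0.17 with nickel, chromium and cadmium, beside the same 14.7%, 17.5% and 12.4% that fell. Fga and Fgg, the alpha and gamma chains of fibrinogen, changed by -1.47 and -0.92 with nickel, -1.15 and -0.32 with chromium and -0.17 and 0.05 with cadmium, and the cadmium values did not pass the test. Tat, tyrosine aminotransferase, changed by -1.14 with chromium and -0.99 with cadmium, both past the test, and by -0.04 with nickel (adjusted p = 0.80). Gys2, liver glycogen synthase, changed by -1.30 with nickel and -0.68 with cadmium, both past the test, and by -0.04 with chromium (adjusted p = 0.87). The nickel count was 3 without replicate 1 and 2 without replicate 2.

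Among 10 measured relatives and partners of the C/EBP proteins, 5 rose and 1 fell with nickel, 4 rose with chromium and 4 with cadmium, where none fell, at medians of 0.26, 0.16 and 0.18. Of all probe sets at or above the median level, 21.1%, 20.8% and 21.9% rose. Atf3, a factor induced by stress, rose by 2.55, 1.08 and 3.24 with nickel, chromium and cadmium, and Ddit3 (also called Chop), which pairs with C/EBP proteins, rose by 0.73, 0.51 and 1.92. Trib3 rose by 0.68 with nickel and 0.95 with cadmium and changed by -0.04 with chromium. Atf5 fell by 0.58 with nickel, with changes of -0.45 and -0.50 with chromium and cadmium that did not pass. The nickel count of 5 was 2 without replicate 1 and 1 without replicate 2.

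**Figure D5:**
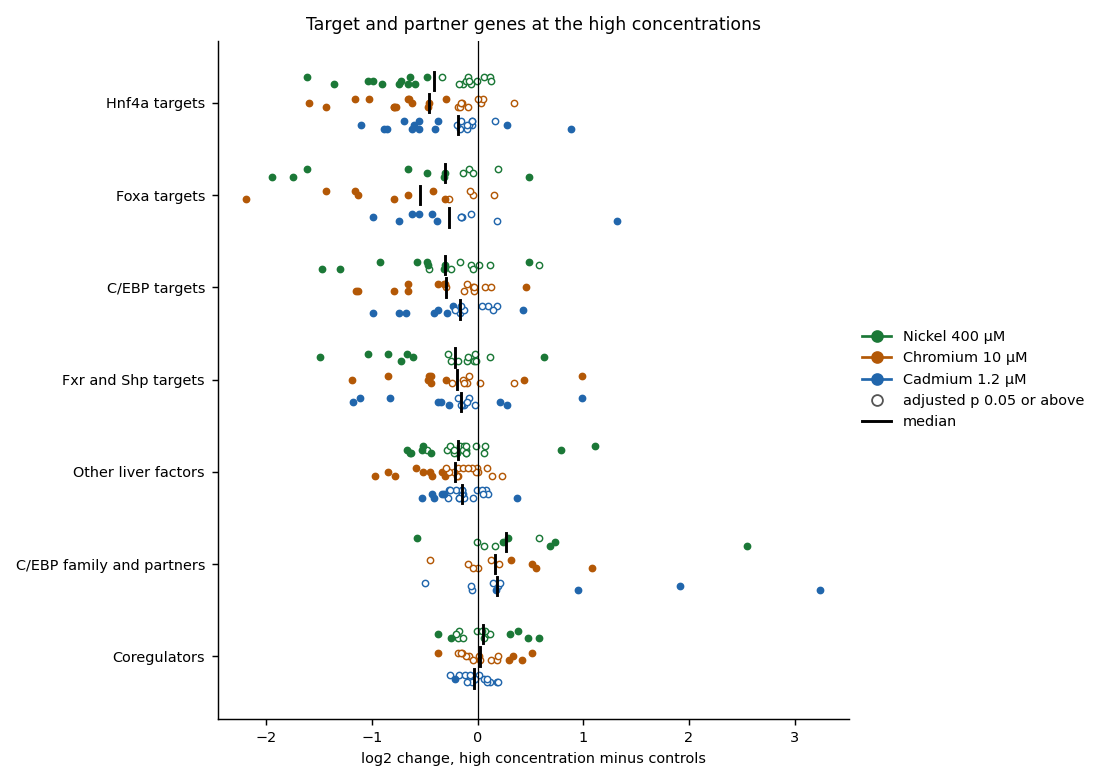
Log2 change at the high concentration minus the controls (x axis) of each measured gene of 7 lists, by metal; filled points have an adjusted p under 0.05 and black bars are list medians. The Hnf4a targets have filled points almost only left of 0, and the C/EBP family and partners have theirs mostly right of 0.

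Of 24 other measured liver factors, 6 fell and 2 rose with nickel, 9 fell and 0 rose with chromium, and 5 fell and 1 rose with cadmium, again beside 14.7%, 17.5% and 12.4% that fell. Creb3l3, a liver factor of fasting metabolism, changed by -0.64 with nickel and -0.98 with chromium, both past the test, and by -0.28 with cadmium (adjusted p = 0.083). Zbtb20, a repressor of Afp, changed by -0.85 with chromium and -0.43 with cadmium, both past the test, and by -0.22 with nickel (adjusted p = 0.28). Nfil3 and Onecut2, a close relative of Onecut1, rose with nickel by 1.11 and 0.79. With the other metals they changed by -0.23 to 0.05 and did not pass. The cadmium count of 5 that fell was 9 without the repeated arrays, and the nickel count of 6 was 3 without replicate 1 or 2. Of 16 measured coregulators 4 rose and 2 fell with nickel, 4 rose and 1 fell with chromium, and 0 rose and 1 fell with cadmium. The rises with nickel and chromium, 4 of 16 each, stand beside 21.1% and 20.8% of probe sets at or above the median level and are near that share. Nrip1, a corepressor of nuclear receptors, rose by 0.58 with nickel, and Carm1, an arginine methyltransferase, rose by 0.48 with nickel and 0.42 with chromium. Kmt2d, a histone methyltransferase, changed by 0.38 with nickel and -0.37 with chromium, both past the test, and Ppargc1b, a coactivator of metabolism, rose by 0.51 with chromium.

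Of 11 measured hepatocyte markers 6 fell and 1 rose with nickel, 6 fell and 1 rose with chromium and 5 fell and 2 rose with cadmium, with the shares of all probe sets given above, and the nickel count was 2 without replicate 1 and 1 without replicate 2. Their mean log2 level was 9.28 to 10.55 on the nickel arrays, 9.80 to 9.98 on the chromium arrays and 10.11 to 10.48 on the cadmium arrays, against 10.35 to 10.54 on the control arrays. Of 10 progenitor markers 1 fell with nickel, 0 with chromium and 2 with cadmium, and none rose. Of 14 markers of other liver cells, 2 fell with nickel, 1 with chromium and 3 with cadmium, and 1 rose with cadmium. In the whole table, where low levels are included, 9.25%, 10.0% and 9.08% fell with nickel, chromium and cadmium. Col3a1, a collagen of stellate cells, changed by -1.22, -0.31 and -0.61 with nickel, chromium and cadmium, and Stab2, a receptor of sinusoid cells, by 0.62 with cadmium.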

How the data were processed

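RNA of 44 H4-II-E-C3 cultures was measured on Affymetrix rat arrays. The deposited values are log2 intensities that the authors made by RMA in Partek Genomics Suite, so background correction, quantile normalization and summarization came before any step here. RMA sets all arrays to 1 distribution, and array means lay between 6.485 and 6.487. Detection calls were not used here, so no level filter replaced the present-call filter of the methods.

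Columns were given conditions by title order, as stated in the text. Under it condition means lay within 7.5e-06 (median 2.95e-06) of the averages tabulated by the study, for 992 probe sets and 9 conditions. Under the labels as given the largest difference was 4.32 and the median 0.164. The order follows a rule set for this work and was not derived from member values.

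Each metal was fitted alone with limma 3.58.1 (R 4.3.3; lmFit, eBayes with an intensity trend), with condition and replicate number as terms and the 2 controls of a replicate averaged, leaving 9 residual degrees of freedom. The methods name dose and a batch set by experimental and processing dates, and the sources used here do not say whether that batch is the replicate number. Each probe set has 1 residual spread per fit, shared by the controls and all exposures of the metal. P-values were adjusted over all 31042 probe sets. Data with 200 changed probe sets were simulated for nickel at the high concentration. In them this fit recovered 86% of 1.5-fold and 97% of 2-fold changes, with 15 calls among the unchanged. In the measured data 6746 probe sets passed at this concentration. The number changed at least 2-fold differed between replicates, from 1039 in replicate 1 to 173 in replicate 3. The recovery rates therefore hold for the simulated data and do not measure how reliable the nickel calls are. Alternatives were the labels, arrays on which both assignments agree, no block, other uses of controls, single replicates or repeated arrays left out, no trend, a level filter, 1 joint fit, centring and the mean of probe sets. Named genes are the members, up to 4 genes per list by largest called change, and the 3 closest patterns of each called member. Alb, Abcb11, Ptprc, Mt2A, Cd24, H19, Slc10a1 and Otc fall outside this rule and were chosen after their values were seen. Genes of probe sets came from the platform annotation, where 20826 probe sets name 1 gene. The members and lists were chosen with earlier results of these data known.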

Additional observations from a re-analysis of the deposited data

Results flagged for a closer look

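In 5 of 90 groups of arrays examined for the members, 1 array lay far from the rest by Dixon's ratio (gap to the nearest array over the whole range), while chance alone would mark about 1 in 20 groups. Cebpa was low on the repeated array of replicate 4 with 400 µM nickel (7.70, others 8.54 to 8.66, ratio 0.87). Foxa1 was low in replicate 2 with 140 µM nickel (4.27, others 4.46 to 4.49, ratio 0.855). Foxa3 was high in replicate 2 with 0.275 µM chromium (5.48, others 5.16 to 5.21, ratio 0.87) and with 10 µM chromium (5.28, others 4.85 to 4.89, ratio 0.893). Nr0b2 was high on 1 control array of replicate 4 (7.96, others 7.32 to 7.57, ratio 0.604).

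The effects of the metals at the high concentration differed by a direct test in 6 of 27 cases. Of all probe sets 24.8% (nickel and chromium), 25.0% (nickel and cadmium) and 25.1% (chromium and cadmium) differed, so the count is near the share of all probe sets. The log2 differences were -0.28 for Foxa2, -0.33 for Nr1h4 and 0.63 for Onecut1 (nickel minus chromium), -0.91 for Nr1h4 and 0.34 for Onecut1 (nickel minus cadmium), and -0.58 for Nr1h4 (chromium minus cadmium).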

How the results depend on the processing

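With the labels as given, the counts of members called at the high concentrations were 0 with each metal (6, 4 and 4 in title order, for nickel, chromium and cadmium), those for high against middle 0, the differences between metals 0 and the probe sets called 0. Cebpb with cadmium then had a change of -0.30, and the high minus middle change was 0.0030 for Foxa3 (nickel), 0.0559 for Hnf4a and 0.0408 for Nr0b2 (cadmium), and 0.0098 for Nr1h4 and 0.20 for Onecut1 (chromium), each against the sign given above. On the 22 arrays that keep their condition under both, the members called at the high concentrations were 7 with nickel and 3 with chromium. The exposed arrays among the 22 are all of replicates 1 and 2, the replicates in which most probe sets changed with 400 µM nickel. Cadmium at 0.55 and 1.2 µM keeps only its array of replicate 1, so no count is given for cadmium. The share of all probe sets that passed on these arrays is not given here, so these counts are not read as a check of the order.

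With no replicate block the members called were 2, 3 and 2, the probe sets called 3793, 4600 and 3891, the high against middle counts 1 with nickel and 1 with cadmium, and the differences between metals 2. Samples with the same number deviated together (median r = 0.51, other numbers -0.30), but not in every pair (169 of 180 over 0.1), and 36 of 40 were closest to their own number.

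Without the 4 repeated arrays the members called were 7, 4 and 6, with 1 for nickel middle, 1 for cadmium low and 2 for cadmium middle, and 14 differences between metals. At the high concentrations 24.7%, 27.8% and 30.6% of all probe sets then passed against the controls, more than with all arrays. No such share is given for the differences between metals. With Control 1 arrays alone cadmium had 1 member at low and 1 at middle, and with separate controls 1 and 2. Leaving out each replicate gave 1 to 7 members with nickel, 3 to 4 with chromium, 3 to 5 with cadmium, 0 to 1 for cadmium low and 0 to 1 for cadmium middle, 1 to 6, 2 and 1 to 3 for high against middle in either direction with nickel, chromium and cadmium, and 3 to 10 differences between metals. Probe sets called ranged over 3542 to 6861 with nickel, 4486 to 7038 with chromium and 3475 to 7994 with cadmium. Nickel gave 1 member without replicate 1 and 1 without replicate 2. Nr0b2 with chromium and Hnf4a with cadmium also lost the call in 1 fit over all conditions (adjusted p = 0.058 and adjusted p = 0.25), as did Cebpb with nickel (adjusted p = 0.053). The alternatives for high against middle, lists and the count of metal differences were chosen after seeing the data. The cause of these shifts was not tested.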
